A study of Mus musculus with 4 samples.

Results

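Inflammasomes are protein platforms that switch on inflammatory caspases, and the transcripts of 8 genes of this system are described here in whole mouse kidney. The genes were taken by symbol: the inflammatory caspases Casp1, Casp4 and Casp12, the sensor Nlrp3, the adaptor Pycard, the cytokines Il1b and Il18, and the inhibitory receptor Sigirr. All 8 had at least 1 probe on the Illumina mouse bead array, out of 15967 genes with a probe, and they were covered by 10 probes, 2 each for Casp4 and Nlrp3. Kidneys came from 2 inbred mouse strains, C57BL/6 and FVB/N, either diabetic for 21 days or injected with saline as controls for the same time. The series text gives 8 weeks of age, both sexes and 6 kidneys in each of the 4 groups. Each group has 1 column of log2 intensities, called a library below, and neither the way diabetes was induced nor whether a library is a pool or a single kidney was stated by the labels used. With 1 library per group there is no replicate check, no test was run, and every difference compares those libraries only.

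In the canonical pathway a sensor such as NLRP3 recruits the adaptor ASC, encoded by Pycard, which gathers caspase-1. Caspase-1 cuts the precursors of the cytokines IL-1 beta and IL-18 and opens gasdermin D, which forms pores in the cell membrane. In the mouse, Casp4 encodes the protein long known as caspase-11, which binds bacterial lipopolysaccharide inside the cell and also cuts gasdermin D. SIGIRR is a receptor of the IL-1 family that dampens signals from IL-1 and Toll-like receptors, and in kidney it is found on tubule cells as well as on dendritic cells.

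Casp1, Casp4 and Casp12 are direct neighbours on chromosome 9 of the mouse assembly GRCm38.p6, where they lie in this order between Gria4 and Pdgfd. Promoter sequence in the RefSeq table of that build matched 7 of the 8 genes, all but Sigirr. The 250 bases upstream of the annotated start are shown for Casp4 and Il1b, which were higher in the diabetic library of both strains, and for Casp1, the neighbour of Casp4 that was not. Casp4 is at chr9:5308599-5308848 on the plus strand, from the first of 2 starts in the table, Casp1 at chr9:5298267-5298516 on the plus strand and Il1b at chr2:129371140-129371389 on the minus strand. Capitals mark matches to the NF-kB consensus in Casp4 and to the TATA box in Il1b.
Casp4: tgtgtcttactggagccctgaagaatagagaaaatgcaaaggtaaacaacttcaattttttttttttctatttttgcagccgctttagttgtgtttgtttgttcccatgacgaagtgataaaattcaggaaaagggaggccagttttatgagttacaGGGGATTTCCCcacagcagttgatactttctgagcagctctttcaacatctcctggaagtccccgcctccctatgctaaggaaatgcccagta
Casp1: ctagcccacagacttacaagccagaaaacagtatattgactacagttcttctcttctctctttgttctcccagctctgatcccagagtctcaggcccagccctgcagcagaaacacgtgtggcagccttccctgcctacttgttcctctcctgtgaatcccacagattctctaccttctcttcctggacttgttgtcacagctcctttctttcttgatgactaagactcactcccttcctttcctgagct
Il1b: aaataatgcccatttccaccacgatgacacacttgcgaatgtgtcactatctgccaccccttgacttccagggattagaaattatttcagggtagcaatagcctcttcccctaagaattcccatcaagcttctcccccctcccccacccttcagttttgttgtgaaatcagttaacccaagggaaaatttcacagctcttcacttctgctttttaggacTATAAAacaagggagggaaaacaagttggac
Both strands were searched for 3 patterns, the NF-kB consensus, TTCNNNGAA for STAT factors and TATAAA for the TATA box. No pattern contains another, and the patterns were chosen after the Casp4 sequence had been seen. The NF-kB consensus occurred in Casp4 as 2 overlapping matches, GGGGATTTCC from 93 to 84 bases upstream of the start and GGGATTTCCC from 92 to 83. It occurred in 3.75% of 27025 promoters of this length, 1 per gene, and the TATA box, which stood 31 to 26 bases upstream of Il1b, in 13.0%. In Casp1 none of the 3 patterns was found, which says only that these letters are not in this window. Among the promoters not shown, Casp12 held 2 matches to the STAT pattern, TTCTGGGAA each, a pattern present in 7.18% of promoters, and Il18 held 1 TATA box on the other strand. No match was found in Pycard, or in Nlrp3 at the first of its 2 starts, the only one searched. A match is a description of the letters and not a site.

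Intensities of all probes ran from 4.45 to 15.84 on the log2 scale. Each gene is represented by its brightest probe, by the mean across libraries, and is called tested when that mean reaches the expression minimum of 5.49, the probe median, as 9201 genes did. Of the 8 members, 5 were tested, Casp1, Casp4, Nlrp3, Il1b and Sigirr, while Casp12, Pycard and Il18 lay below the minimum in all 4 libraries. Casp4 and Il1b lay below the minimum in both control libraries and passed only through the diabetic ones, so passing the filter depended on the difference itself. No detection calls were used, so a value below the minimum is described as near background, where differences are compressed. As a yardstick in place of replicates, the spread of a single probe's difference was taken from the 276 genes with 2 tested probes whose means lay between the expression minimum of 5.49 and 7.10, the highest mean of a member. This spread, as a standard deviation, was 0.44 log2 for diabetic minus control in C57BL/6 and 0.46 in FVB/N, and 0.46 and 0.51 for FVB/N minus C57BL/6 in control and diabetic libraries. It covers disagreement between probes and not differences between mice. The kidney origin showed in the tubule and podocyte markers, of which 9 of 9 measured were tested, with the phosphate transporter Slc34a1 between 14.52 and 14.97 in the 4 libraries. The FVB/N diabetic library stood apart in some of them, with the water channel Aqp2 at 2.81 and the androgen-regulated gene Kap at -2.08 against its control, where C57BL/6 had -0.24 for each, and the glucose transporter Slc5a2 was at -3.71 for FVB/N minus C57BL/6 in controls. Adipocyte markers differed between libraries, with summed linear intensities over 6 tested genes of 5233 in the C57BL/6 control, 2217 in the C57BL/6 diabetic, 6059 in the FVB/N control and 1047 in the FVB/N diabetic library, and their part in the results was not tested. In whole kidney, fewer cells of a type and less RNA per cell cannot be told apart.

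**Figure D1:**
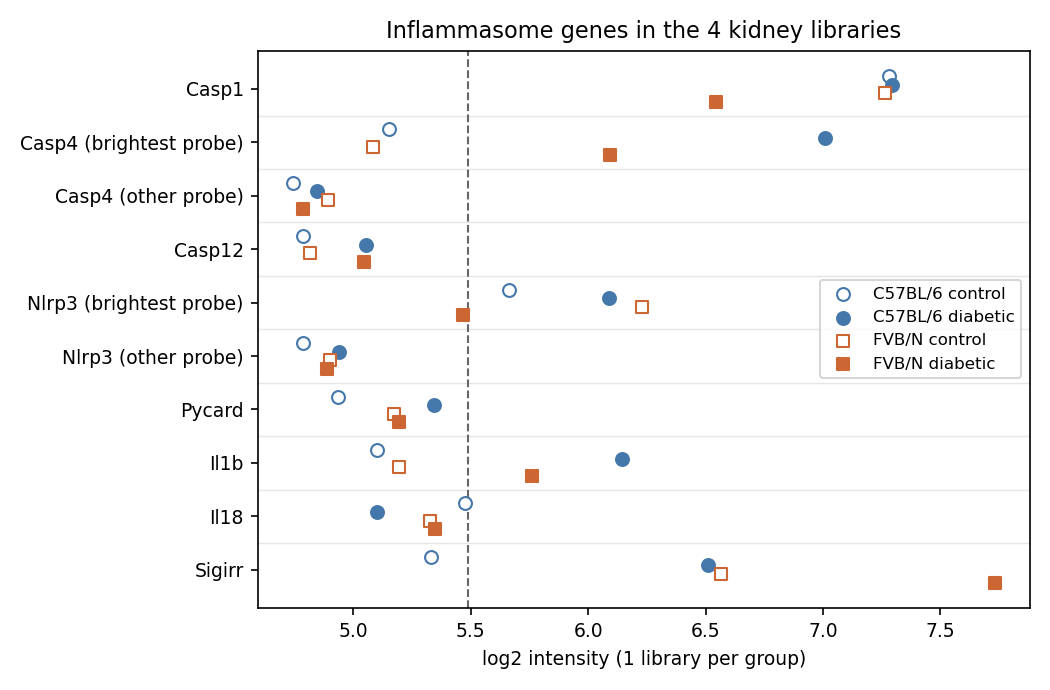
Log2 intensity of each of the 10 member probes (rows) in the 4 libraries, with open symbols for control, filled symbols for diabetic, circles for C57BL/6 and squares for FVB/N. The dashed line marks the expression minimum of 5.49, and the brightest Casp4 probe, Il1b and Sigirr have their filled symbols to the right of the open symbol of the same strain. So do Casp12 and Pycard, by less and left of the line.

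Among the caspases, Casp4 stood at 5.15 in the C57BL/6 control, 7.01 in the C57BL/6 diabetic, 5.08 in the FVB/N control and 6.09 in the FVB/N diabetic library. Both control libraries were near background, FVB/N minus C57BL/6 being -0.07, and both diabetic libraries lay above them. The difference was 1.86 log2 or 3.62-fold in C57BL/6 and 1.01 log2 or 2.01-fold in FVB/N. Of the 9201 tested genes, 0.0543% were as far or farther up in C57BL/6 and 3.92% in FVB/N. The other Casp4 probe, annotated to the same transcript, lay near background throughout, at 4.74, 4.85, 4.89 and 4.79 in the same order of libraries, and differed by 0.10 and -0.11. The pattern of Casp4 therefore rests on 1 probe. Averaged over both probes, the differences were 0.98 and 0.45 and the gene fell below the expression minimum.

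Casp1, the caspase of the canonical inflammasome, had 1 probe, at 7.28 in the C57BL/6 control, 7.29 in the C57BL/6 diabetic, 7.27 in the FVB/N control and 6.54 in the FVB/N diabetic library. The FVB/N diabetic library alone was low, and FVB/N minus C57BL/6 in controls was -0.02. Diabetic minus control was 0.01 in C57BL/6 and -0.72 in FVB/N, where 8.29% of tested genes were as far or farther down. Casp12, an inflammatory caspase of the mouse linked to the endoplasmic reticulum, was near background at 4.78, 5.05, 4.81 and 5.05. Its diabetic libraries lay 0.27 and 0.23 above their controls, less than the spread of a single probe.

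The sensor Nlrp3 stood at 5.66 in the C57BL/6 control, 6.09 in the C57BL/6 diabetic, 6.23 in the FVB/N control and 5.46 in the FVB/N diabetic library. The strains went opposite ways, at 0.43 in C57BL/6, about the spread of a single probe, and -0.77 in FVB/N. The other Nlrp3 probe lay near background, between 4.79 and 4.94 in the 4 libraries, and differed by 0.15 and -0.01. Averaged over both probes, Nlrp3 was at 0.29 and -0.39 and below the minimum. The adaptor Pycard lay between 4.93 and 5.34, highest in the C57BL/6 diabetic library, with differences of 0.41 and 0.02.

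Il1b, the cytokine that caspase-1 releases in active form, stood at 5.10 in the C57BL/6 control, 6.15 in the C57BL/6 diabetic, 5.20 in the FVB/N control and 5.76 in the FVB/N diabetic library. Both diabetic libraries were above both controls, by 1.04 log2 in C57BL/6 and by 0.56 in FVB/N within the strain. In C57BL/6 0.837% of tested genes were as far or farther up, and in FVB/N 13.1% were. After lowess centring of each difference on intensity the FVB/N value was 0.63, past the 1.5-fold line of 0.585 that 0.56 misses. The same centring made the lower FVB/N members smaller in size. Casp1 went from -0.72 to -0.60, barely past the line, and Nlrp3 from -0.77 to -0.68. The median of all tested genes was -0.10 in FVB/N, so values there can be read relative to that. Il18, the other cytokine substrate, which tubule cells also make, was near background at 5.48, 5.10, 5.33 and 5.35 and differed by -0.37 and 0.02.

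Sigirr had the widest range over the libraries of any member, 2.40 log2, and went apart by both strain and diabetes. It stood at 5.33 in the C57BL/6 control, 6.51 in the C57BL/6 diabetic, 6.57 in the FVB/N control and 7.73 in the FVB/N diabetic library. The C57BL/6 diabetic and FVB/N control libraries were level within the spread of a single probe, and each of the others was set off from them by more than that spread. Diabetic minus control was 1.18 in C57BL/6 and 1.17 in FVB/N, so the difference between these differences was -0.02 log2. FVB/N minus C57BL/6 was 1.24 in controls and 1.22 in diabetics. As far or farther up were 0.5% of tested genes for diabetes in C57BL/6, 2.6% for diabetes in FVB/N and 0.696% for strain in controls. Sigirr has 1 probe, and its level in the C57BL/6 control library was near background.

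**Figure D2:**
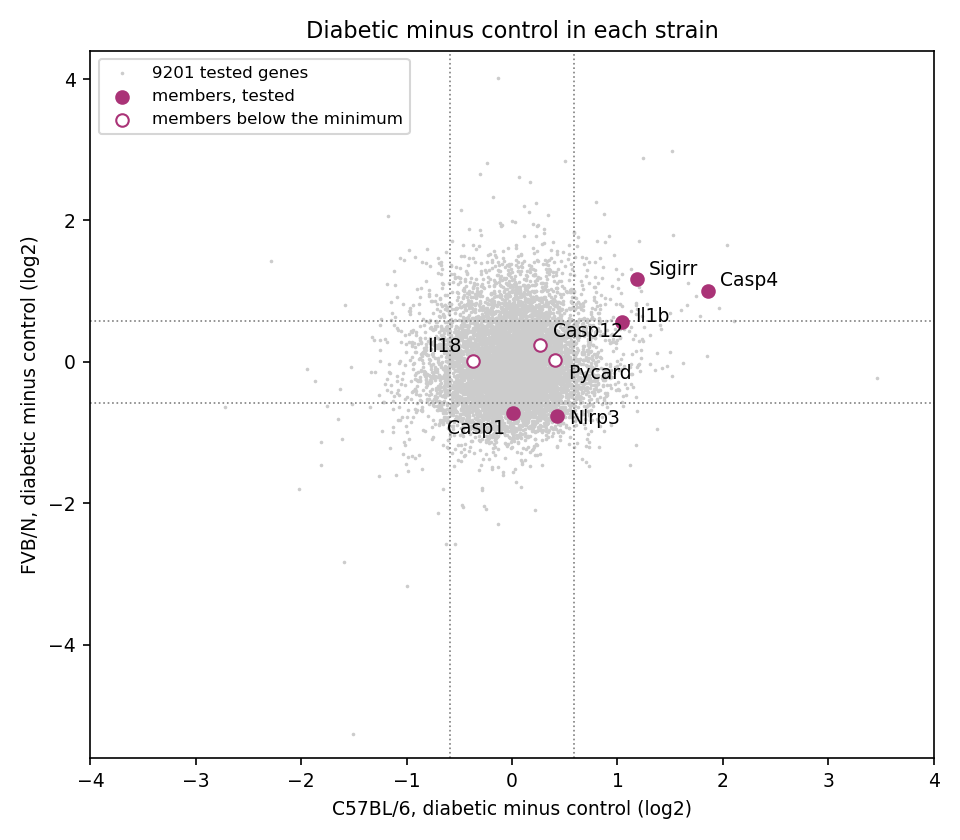
Diabetic minus control in C57BL/6 (x axis, log2) against the same in FVB/N (y axis, log2), with 9201 tested genes in grey, tested members filled and members below the expression minimum open. Dotted lines mark 1.5-fold, and Casp4 and Sigirr lie beyond them at the upper right while Casp1 and Nlrp3 lie beyond the lower line for FVB/N.

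In C57BL/6, 3 of the 5 tested members (Casp4, Il1b, Sigirr) stood at least 1.5-fold above control in the diabetic library, against 6.14% of all tested genes, and 0 stood as far below, against 6.35%. Without a filter the same 3 of 8 members were higher and 0 lower, where 4.32% and 4.38% of 15967 genes were. In FVB/N 2 members were higher (Casp4, Sigirr) and 2 lower (Casp1, Nlrp3), against 12.4% and 13.9% of tested genes. Without a filter these were 2 and 2 of 8, against 8.22% and 8.72%. Over all 8 members the median difference was 0.42 in C57BL/6 and 0.13 in FVB/N, beside 0.01 and -0.04 over all 15967 genes. The members were chosen with earlier results of these data known, and Casp4 and Il1b passed the filter only through their diabetic libraries. The shares here and below are therefore given for scale and test nothing about the members as a set.

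Between the control libraries Casp1 was level, at -0.02. Casp4, Casp12, Pycard, Il1b and Il18 lay below the expression minimum in both, where differences are compressed, so their small differences say little. Sigirr alone was at least 1.5-fold higher in FVB/N, 1 of 5 tested members against 6.29% of tested genes, and 0 were lower, against 6.75%. Nlrp3 came next at 0.57. Between the diabetic libraries 1 member was higher in FVB/N (Sigirr), against 14.7% of tested genes, and 3 were lower (Casp1 at -0.75, Casp4 at -0.92 and Nlrp3 at -0.62), against 16.9%. After lowess centring Nlrp3 was at -0.55, inside the 1.5-fold line, which left 2 lower. The effect of diabetes was more negative, or less positive, in FVB/N than in C57BL/6 by at least 1.5-fold for the same 3 genes, Nlrp3 at -1.19 log2, Casp4 at -0.85 and Casp1 at -0.73, against 18.6% of tested genes, and 0 went the other way, against 15.5%. The strain and diabetes comparisons share libraries, and the FVB/N diabetic library enters each of these last counts. Averaged over probes, only Casp1 among tested members was left in either count.

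The genes with the most similar profiles were found for each tested member with a range of at least 1 log2, by the Euclidean distance between profiles centred on their own mean over the 4 libraries. For Casp4 the nearest of the tested genes was Havcr1, the kidney injury molecule of proximal tubules, at a distance of 0.12 log2, with 5.20, 6.94, 5.19 and 6.12 in the order of the libraries above. Next were Chek2, a DNA damage checkpoint kinase, at 0.34 and the peptidase inhibitor Slpi at 0.37. Like Casp4, all of Havcr1, Chek2 and Slpi lay below the expression minimum in both control libraries. They too passed the filter only through the diabetic ones, so part of the likeness comes from values near background. For Il1b the nearest were Cdca7 at 0.13, Smim3 at 0.13 and Tmem119, a microglial marker in brain that is also made in bone, at 0.14. For Sigirr the nearest was the organic anion transporter Slco4a1 at 0.14, at 6.12, 7.12, 7.21 and 8.38, followed by the ubiquitin-like modifier Ubd at 0.31 and Ppil1, a peptidyl-prolyl isomerase of the spliceosome, at 0.38. With 4 libraries and 9201 genes, close profiles are easy to find.

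**Figure D3:**
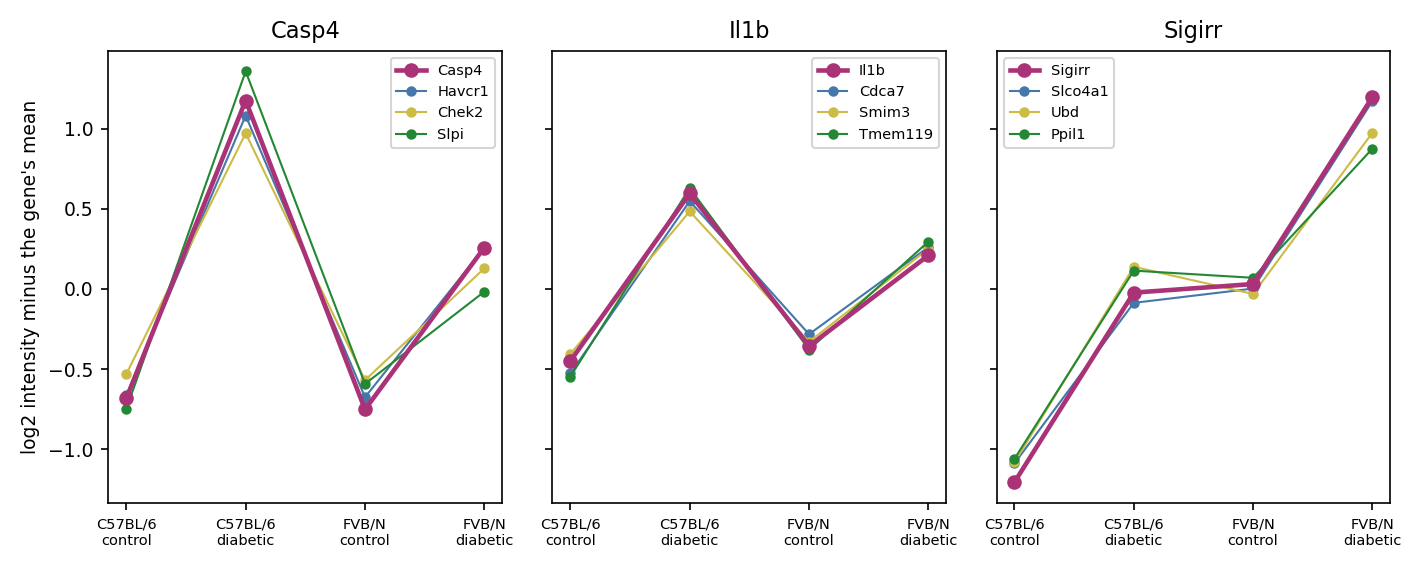
Log2 intensity minus each gene's own mean over the 4 libraries (y axis) for Casp4, Il1b and Sigirr (thick lines) and the 3 tested genes nearest to each. Lines join libraries only to guide the eye, and Havcr1 runs within 0.12 log2, as a Euclidean distance, of Casp4.

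Genes around the members were taken from written lists. Of 5 tested pyroptosis effectors, 1 was at least 1.5-fold higher in C57BL/6 and 1 in FVB/N, with 0 lower. Gsdmd, the gasdermin that caspase-1 and caspase-11 cut, stood at 5.61 in the C57BL/6 control, 6.59 in the C57BL/6 diabetic, 5.50 in the FVB/N control and 5.97 in the FVB/N diabetic library. It was thus higher in both diabetic libraries, by 0.98 and 0.46, on the brighter of its 2 probes. Ninj1, which drives the rupture of dying cells, was 0.42 higher in C57BL/6 and 1.56 higher in FVB/N. The other tested effectors were below control in FVB/N, by less than 1.5-fold. Gsdme was at 0.11 in C57BL/6 and -0.40 in FVB/N, Gsdmc at 0.51 and -0.19 and Hmgb1 at -0.12 and -0.55. The list medians were 0.42 and -0.19.

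Inflammasome sensors and regulators had 18 of 28 genes measured and 10 tested, of which 0 were higher and 2 lower in C57BL/6 and 2 higher and 2 lower in FVB/N. The ATP-gated channel P2rx4 stood at 6.11, 6.08, 6.35 and 7.49 in the order of the libraries above, so the FVB/N diabetic library alone was high. P2rx7, the ATP receptor that triggers NLRP3, was at 0.36 in C57BL/6 and -0.75 in FVB/N on the brightest of its 4 probes. The channel Panx1 was at 0.08 and 0.68 and the peptidoglycan sensor Nod1 at -0.62 and -0.59. Nlrc4, the flagellin pathway sensor, was near background, between 4.77 and 5.07.

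In the IL-1 family, 4 of 8 measured ligands and binding proteins were tested, with 1 higher and 0 lower in C57BL/6 and 1 higher and 1 lower in FVB/N. Il18bp, whose product captures IL-18, stood at 7.62, 7.36, 8.12 and 6.07, lowest in the FVB/N diabetic library, with -0.26 in C57BL/6 and -2.05 in FVB/N. Il1f6, which encodes IL-36 alpha, stood at 4.88, 5.46, 5.07 and 6.91, highest in the same library, with 0.58 and 1.84. It lay below the expression minimum in the other 3 libraries and passed only through the one where it was high. The related Il1f9 was at 0.69 and -0.39, and the alarmin Il33 at 0.33 and -0.19. Il1a lay between 4.90 and 5.27 and the receptor antagonist Il1rn between 4.69 and 4.77, both near background. Of 3 tested IL-1 family receptors, 0 were past 1.5-fold in C57BL/6 and 1 was lower in FVB/N. Il18r1, a chain of the IL-18 receptor, went opposite ways at 0.48 and -0.78, and Il1r1, the IL-1 receptor, was at -0.14 and -0.48.

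Among Toll and IL-1 receptor signalling genes, 20 were tested, 0 were past 1.5-fold in C57BL/6, and 1 was higher and 0 lower in FVB/N. That gene was Irak2, a kinase of the receptor complex, at 0.15 in C57BL/6 and 1.02 in FVB/N. Tlr2 was at 0.55 and 0.16, Ikbkb at -0.58 and 0.29, and Traf6 at 0.01 and -0.53. The list medians were 0.00 and -0.17, beside 0.01 and -0.10 over all tested genes. Of 8 tested interferon signalling genes, 0 were higher and 1 lower in C57BL/6, and 1 higher and 2 lower in FVB/N, with Irf2 at -0.23 and -1.07, Irf9 at -0.28 and -0.62, Irf1 at -0.67 and 0.20 and Ifngr1 at -0.13 and 0.63.

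Other caspases and caspase inhibitors had 7 tested genes, with 0 past 1.5-fold in C57BL/6 and 0 higher and 2 lower in FVB/N. The lower genes were Casp2 at -0.80 and the inhibitor Birc3 at -0.65. Casp8, which starts apoptosis from death receptors, was at -0.36 in C57BL/6 and 0.58 in FVB/N. Of 7 tested genes of endoplasmic reticulum stress, where caspase-12 has been placed, 1 was higher and 0 lower in C57BL/6 and 2 higher and 1 lower in FVB/N. Ddit3, the stress transcription factor CHOP, was at 0.62 and 0.78, Herpud1 at 0.09 and 1.36, Atf6 at 0.07 and -0.64, and the chaperone Hspa5 at -0.13 and 0.50.

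**Figure D4:**
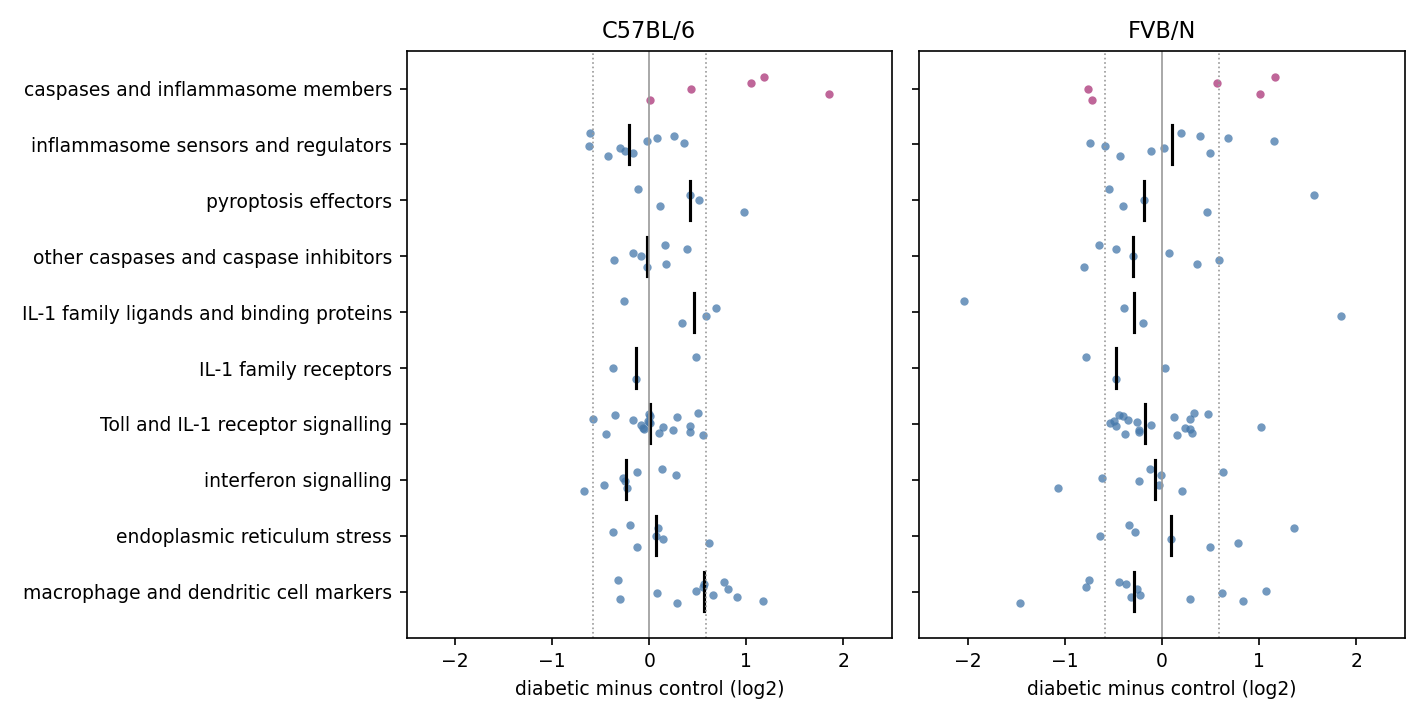
Diabetic minus control (x axis, log2) for each tested gene of the members and of 9 related lists (rows) in C57BL/6 (left) and FVB/N (right), with a black bar at the median of each list other than the members and dotted lines at 1.5-fold. The outermost points in FVB/N are Il18bp at -2.05 and Il1f6 at 1.84, both in the row of IL-1 family ligands and binding proteins.

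Markers of immune cells also differed between the libraries. The shares over all tested genes were 6.14% higher and 6.35% lower in C57BL/6 and 12.4% and 13.9% in FVB/N. Of 12 tested macrophage and dendritic cell markers, 5 were higher by 1.5-fold or more and 0 lower in C57BL/6, while in FVB/N 3 were higher and 3 lower. Their summed linear intensity was 4148 in the C57BL/6 control, 4391 in the C57BL/6 diabetic, 2979 in the FVB/N control and 2103 in the FVB/N diabetic library. The brightest gene, Laptm5, a lysosomal protein of blood cells, was at -0.32 and -0.76, and without it the sums were 1653, 2391, 1531 and 1246. The list medians were 0.56 and -0.29. The macrophage gene Adgre1 was at 8.36, 8.65, 8.18 and 6.72, so that Adgre1, like Casp1 and Nlrp3, was lowest in the FVB/N diabetic library. The lysozyme Lyz2 was 1.18 and 0.83 higher, C1qb 0.48 and 1.07 higher, and Cx3cr1 was at 0.90 and -0.32, with Itgam, Itgax, Cd163 and Fcgr1 near background in every library.

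Of 6 tested neutrophil markers, 2 were higher and 1 lower in C57BL/6 and 2 higher and 0 lower in FVB/N, and the higher genes were S100a8 at 0.98 and 0.82 and S100a9 at 1.21 and 1.20. The list medians were 0.38 and 0.03. The summed intensity was 272, 353, 340.5 and 412 in the order of the libraries above, and without S100a8 and S100a9 it was 196, 190.3, 231 and 191. Among the others, Csf3r was at -0.07 and -0.53 and Ltf at 0.33 and -0.51. The neutrophil genes Cxcr2, Mpo and Ngp were below the minimum in all 4 libraries, Retnlg was at -0.79 and 0.57 and Elane at 0.44 and -0.58. Camp, also not tested, passed the minimum only in the C57BL/6 control library, at 5.71, and differed by -0.70 and 0.34. Tubular injury markers had 3 of 9 tested genes higher in C57BL/6 and 5 of 9 in FVB/N, with 0 lower, including Lcn2 at 1.25 and 2.88. Of 6 tested markers of intercalated cells, a collecting duct cell type, 0 were higher and 1 lower in C57BL/6 and 2 higher and 2 lower in FVB/N. Of 4 tested T and B cell markers, 0 were higher and 1 was lower in each strain, but not the same gene. Nkg7 was at -0.71 in C57BL/6 and 0.50 in FVB/N, and Ptprc at 0.31 and -0.6. Neither gene is confined to T and B cells. The part of immune and tubular cell content in the values of Casp4, Il1b, Casp1 and Nlrp3 was not tested.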

How the data were processed

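Per the labels' protocols, Trizol was used for RNA extraction, DNase and columns for clean-up, and streptavidin-Cy3 for staining of biotinylated cRNA. The deposited values were read as log2 intensities from their range. After sorting, the gap between libraries at a rank had a median of 0.003 log2 and was 0.42 at most. The libraries were thus nearly alike in distribution, but no label or header used here names the normalization, background correction or software. Arrays were too few, 1 per group, to give a spread between replicates.

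Of 24613 probes, 20984 had exactly 1 gene symbol in the platform annotation, 1 had several and 3628 had none. Of these, 20968 had a gene identifier in the reference table, and 0 had another symbol there. Values were used as deposited, with the brightest probe per gene and differences of log2 values as the measure. The functions were tested on simulated data. Python 3.11.15, numpy 2.4.6, pandas 2.3.3, statsmodels 0.14.6 and matplotlib 3.10.9 were used. Alternatives were quantile normalization, median centring, lowess centring (span 0.3), probe averaging, no filter, a minimum at percentile 75 and a 2-fold line. Genes outside the members were mostly named by a rule: up to 4 tested genes per list with the largest difference, a few fixed pathway genes, and 3 nearest profiles per member. Not every gene given by the rule is named. Some list genes were named outside it, among them Slc34a1, Slc5a2, Laptm5, Csf3r, Ltf, Gsdme and several near background. The members and lists were chosen with earlier results of these data known.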

Additional observations from a re-analysis of the deposited data

Results flagged for a closer look

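For 5 member probes the diabetic library lay above control in 1 strain and below it in the other, and whether these differences between strains exceed the spread between mice was not tested. The effect in FVB/N minus that in C57BL/6 was -0.73 log2 for Casp1 and -1.19 for the brightest probe of Nlrp3. It was -0.16 for the other Nlrp3 probe, -0.21 for the other Casp4 probe and 0.39 for Il18, all of them near background, and the spread of a single probe for this measure was 0.62 log2. Each rests on 4 libraries, 1 per group.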

How the results depend on the processing

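Counts of members past 1.5-fold were each recomputed under 7 alternatives in 5 comparisons and 2 directions. Of these, 56 stayed within 1.5 times of the reported count and 14 did not. A count of 0 that stayed 0 was taken as unchanged, also where 0 members were tested. With the minimum at percentile 75, 7.26 log2, 0 members were tested, so every count was 0. With probes averaged, 3 members were tested and the counts were 1 higher and 1 lower for diabetes in FVB/N, 1 lower for FVB/N against C57BL/6 in diabetics, and 1 lower for the difference of effects. With a 2-fold line, 0 members were lower for diabetes in FVB/N, 0 lower for FVB/N against C57BL/6 in diabetics, and 1 lower for the difference of effects. Shares over all genes were not computed for probe averaging or the 2-fold line, so these counts show only how the member counts moved. Of 145 single-gene values, 143 moved by less than the spread of a single probe, 0.33 to 0.60 log2 over all tested genes with 2 probes, and the exceptions were Casp4 with probes averaged, at 0.98 and 0.45. Many of these values could hardly move. The libraries were already alike in distribution before quantile normalization and median centring, and averaging changes nothing for a gene with 1 probe. No paired analysis was possible because each group has a single library. No member exceeded a mean of 7.10, so intensity over background limits all of these values, and those below the minimum cannot show a small difference.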
